A study of Mus musculus with 24 samples.

Results

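The genes of cholesterol synthesis, sterol sensing and sterol transport were followed across 6 RNA-seq comparisons in mouse naive embryonic stem cells (ESCs). The 29 genes were chosen by name as members of this pathway, and all 29 were found among the 55385 Ensembl genes of every table. They fall into 8 enzymes of the mevalonate arm, 11 enzymes of the sterol arm, 5 genes of sterol sensing, 3 of sterol transport and 2 of efflux. The study asked what sets quiescent ESCs apart, and compared 12 groups of 2 biological replicates each, 24 libraries in all. Cells with the lowest mitochondrial membrane potential (low ΔΨm, the bottom 5% of TMRM dye signal, the spontaneously quiescent cells) were set against those with the highest (high ΔΨm, the top 5%). Cells treated with etomoxir, an inhibitor of fatty acid oxidation, at 100 µM for 4 days were set against H2O, and cells treated with a MYC inhibitor (MYCi) at 64 µM for 3 days against DMSO. Both inhibitors were used to induce quiescence. Cells were transfected for knockdown with 40 nM of a pool of 4 siRNAs against Mat2a (siMat2a), which encodes the enzyme that makes S-adenosylmethionine (SAM), or with control siRNA (siCtr), and cultured for 2 more days after a medium change at 18 h. Eed null ESCs, which lack a core subunit of Polycomb repressive complex 2, were set against Eed heterozygous ESCs. The Eed lines were derived from blastocysts on fibroblast feeder cells, exon 7 was the floxed exon, and the heterozygous controls also carry a deleted allele. Cells of all groups were cultured in medium with the 2i inhibitors and LIF, which keep ESCs naive, but the base medium differed. The methods give N2B27 for naive ESCs, and a base with serum replacement and fetal bovine serum for deriving the Eed lines. Null and heterozygous lines came from different embryos, so line and genotype cannot be told apart. Sorted low ΔΨm cells given 50 µM SAM for 24 h were set against the same kind of cells given 25 µM, with no cells without added SAM in that table.

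Cholesterol is built from acetyl-CoA. The mevalonate arm makes farnesyl diphosphate, which also feeds protein prenylation, and the sterol arm joins it into squalene and turns that into cholesterol. The pathway is under feedback control: when sterols are low, SCAP carries the SREBP proteins (from Srebf1 and Srebf2) out of the endoplasmic reticulum to be cut, and they then switch on most of the synthesis genes together with Insig1. When sterols are plentiful, the INSIG proteins hold SCAP back, and oxysterols bind the LXR receptors (one of them from Nr1h2), which switch on the efflux pump gene Abca1. NPC1 and NPC2 release cholesterol from lysosomes, and STARD4 moves it between membranes.

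Levels are given in FPKM (fragments per kilobase of gene model, scaled to the mapped fragments of the library), with the libraries of each table scaled to one another so that the median gene did not change. Relative to the deposited values, this scaling moved the median log2 fold change over all genes by 0.66 after Mat2a knockdown, 0.70 under etomoxir, 0.68 under MYCi and 0.40 between SAM doses, and by -0.04 and -0.10 in the sorted cells and the Eed lines. The median move of the 29 members was 0.74, 0.79, 0.76 and 0.44, and -0.05 and -0.12, in the same order. A gene counts as changed where its Benjamini-Hochberg adjusted p over all genes tested was under 0.05. From the step size of the low values, the libraries held about 27.2 to 64.2 M fragments over genes, and the member gene with the least signal was covered by an estimated 95.3 fragments in its lowest library, so counting error was small for most members. Mat2a was at 36.5 and 35.1 FPKM in siCtr and 14.5 and 14.7 in siMat2a libraries, and Eed at 12.2 and 11.7 in heterozygous and 2.82 and 2.44 in null libraries, in the direction of the labels. Some libraries stood apart from their partner: siMat2a replicate 2 had a summed deposited FPKM over genes of 146534 against 232216 in replicate 1, and replicate 2 with 50 µM SAM had 167779 against 258937. The 10 naive ESC markers were all measured in every table, and the 9 fibroblast markers summed to at most 9.32 FPKM in any library. In these bulk samples, fewer cells that express a gene and less of its RNA per cell cannot be told apart. The replicates are called biological with no account of separate cultures or animals, so p-values measure the spread between these 2 libraries per group, which may be technical. The median squared difference between replicates, over the variance that counting alone gives, ran from 0.634 in low ΔΨm to 3.53 in siMat2a libraries, so the low ΔΨm replicates differed by little more than counting error. Fragments were counted without regard to strand and shared between overlapping genes, which touches Scap (13.2% of its exon bases overlap 5830462I19Rik), Fdps (26.7%, Gm43738), Fdft1 (18.3%, Ctsb), Hmgcs1 (12.1%, Gm48342) and Tm7sf2 (12.1%, Vps51). Idi1, Ggps1, Npc1, Cyp51, Lss and Srebf1 overlap another gene in 3.1 to 9.2% of their exon bases. Nr1h2 has a pseudogene copy, Nr1h2-ps, with which it may share reads. The part of these genes in the member values was not tested.

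SREBPs bind the sterol regulatory element next to NF-Y and Sp1 boxes, so the RefSeq promoters (GRCm38.p6, from 250 bases before the gene start to 50 after it) were searched on both strands for TCACNCCAC (a sterol regulatory element core), CCAAT (the NF-Y box) and GGGCGG (the Sp1 box). Promoters were matched for 24 of the 29 members. CCAAT was in a promoter of 20 of the 24 (83.3%), against 41.1% of all 27025 genes with a promoter there, and GGGCGG in 21 of 24 (87.5%), against 38.2% of all genes. The genes set against the members were not matched to them for expression or base content. These shares are therefore a description with no test, and binding by SREBPs is not read from them. The element core was found in 1 member, Hmgcs1, against 1.44% of all genes, and a search for this string says nothing about other forms of the element. The 250 bases before the start are shown for 4 genes that fell together after Mat2a knockdown and, last, for Scap, which rose there. Capitals mark the 3 motifs on either strand, and no match of one overlaps a match of another in these 5 sequences.
Hmgcs1 (chr13:119690101-119690350, plus strand): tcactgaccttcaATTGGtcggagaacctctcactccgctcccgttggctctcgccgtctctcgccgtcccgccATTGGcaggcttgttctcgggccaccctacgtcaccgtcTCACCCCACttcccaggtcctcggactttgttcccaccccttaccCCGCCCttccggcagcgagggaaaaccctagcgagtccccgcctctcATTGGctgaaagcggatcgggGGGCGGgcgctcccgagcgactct
Insig1 (chr5:28071162-28071411, plus strand): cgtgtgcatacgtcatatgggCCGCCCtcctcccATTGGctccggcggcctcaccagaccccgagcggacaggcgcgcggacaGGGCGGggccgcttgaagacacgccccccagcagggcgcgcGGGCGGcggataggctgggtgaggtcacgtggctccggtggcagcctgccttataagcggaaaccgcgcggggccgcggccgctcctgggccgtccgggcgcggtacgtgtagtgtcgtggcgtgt
Nsdhl (chrX:72918271-72918520, plus strand): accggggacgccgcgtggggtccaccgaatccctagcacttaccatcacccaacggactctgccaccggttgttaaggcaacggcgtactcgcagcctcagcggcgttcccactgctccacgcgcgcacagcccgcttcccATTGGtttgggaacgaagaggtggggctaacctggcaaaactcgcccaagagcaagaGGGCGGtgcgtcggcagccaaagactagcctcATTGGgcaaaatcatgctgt
Mvd (chr8:122443423-122443672, minus strand): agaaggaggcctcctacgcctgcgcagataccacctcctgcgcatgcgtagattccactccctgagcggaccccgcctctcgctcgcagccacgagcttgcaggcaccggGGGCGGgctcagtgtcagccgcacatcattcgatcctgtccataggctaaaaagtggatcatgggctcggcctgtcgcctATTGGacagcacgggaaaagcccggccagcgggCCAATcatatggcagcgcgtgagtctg
Scap (chr9:110333106-110333355, plus strand, one of its RefSeq starts): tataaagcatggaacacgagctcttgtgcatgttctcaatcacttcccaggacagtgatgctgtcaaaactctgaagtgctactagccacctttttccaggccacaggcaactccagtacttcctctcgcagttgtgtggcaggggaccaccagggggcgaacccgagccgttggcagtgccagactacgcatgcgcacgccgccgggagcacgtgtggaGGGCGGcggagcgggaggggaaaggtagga

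In Hmgcs1, which encodes the synthase that makes HMG-CoA, the core lay from 137 to 129 bases before the start, and 3 CCAAT boxes on the other strand, the nearest from 176 to 172 and from 45 to 41 bases before it. The Mvd promoter held 2 CCAAT boxes and 1 GGGCGG box, and the Nsdhl promoter the same numbers. The Insig1 promoter held 1 CCAAT box and 3 GGGCGG boxes. The printed Scap promoter held 1 GGGCGG box and no CCAAT box. Acat2, which fell after Mat2a knockdown (log2 fold change -0.81), had no CCAAT box in its promoter either. Sqle, Fdps, Fdft1, Stard4 and Npc1 also fell there, and no promoter was matched for them. Whether the boxes go with the fold changes was not tested.

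In high ΔΨm cells, levels of the members ranged from 52.4 ± 1.28 FPKM (SD, n = 2) for Insig1 to 1.14 ± 0.0140 for Ggps1, which encodes the geranylgeranyl diphosphate synthase. Hmgcs1 (42.6 ± 1.25) and Srebf2 (37.2 ± 0.645) followed Insig1, and the libraries of these 3 genes did not overlap. Cyp51 (21.4 ± 1.17) and Srebf1 (21.3 ± 0.0783) did not differ beyond their spread, nor did Mvk (11.5 ± 0.588) and Msmo1 (11.4 ± 0.724). Insig2 (1.53 ± 0.0571) was far below Insig1, and Srebf1 below Srebf2. Tables were normalized separately, so levels are read within a table.

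**Figure D1:**
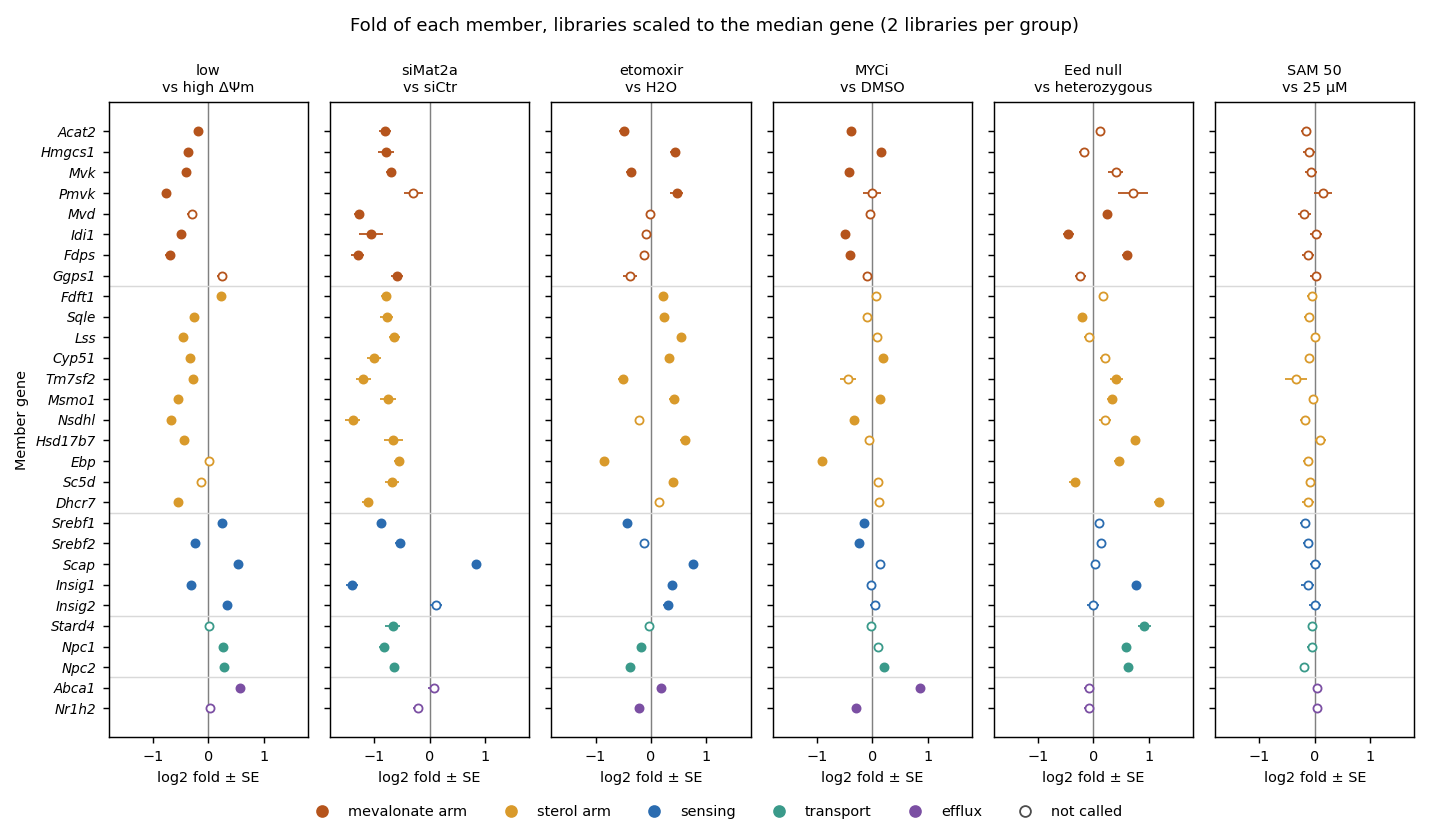
Log2 fold change (x axis, with its standard error) of the 29 member genes (y axis, grouped by role and coloured by it) in the 6 comparisons, 2 libraries a group, libraries scaled to the median gene. Filled points passed an adjusted p of 0.05. After Mat2a knockdown 24 filled points lie below 0 and 1, Scap, above it, between SAM doses none is filled, and the 13 filled points above 0 under etomoxir lie below 0 on the deposited scale.

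The low ΔΨm comparison asked how spontaneously quiescent ESCs differ from cycling ones, and here synthesis genes were lower while several sensing, transport and efflux genes were higher. Of the 29 members, 16 fell and 7 rose relative to the median gene, where 17.0% of all 21086 genes tested fell and 19.4% rose. Among the 19 synthesis enzymes 14 fell and 1 rose, with a median log2 fold change of -0.36, against -0.01 over all genes. Among the other 10 members 6 rose and 2 fell, with a median of 0.26.

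In the mevalonate arm, Pmvk, the phosphomevalonate kinase gene, fell most. Its level was 7.17 and 7.8 FPKM in high and 4.46 and 4.29 in low ΔΨm libraries (log2 fold change -0.76, SE 0.06, adjusted p = 0.00309). Fdps, the farnesyl diphosphate synthase gene, was at 1.75 and 1.52 against 0.947 and 0.988 (log2 fold change -0.70, SE 0.10, adjusted p = 0.0105), while the overlapping Gm43738 was at 2.31 and 2.28 against 1.67 and 1.8. Idi1, which encodes the isopentenyl diphosphate isomerase, fell from 7.47 and 7.87 to 5.31 and 5.56 (log2 fold change -0.49). Hmgcs1 was at 41.7 and 43.4 against 33 and 33.1 (log2 fold change -0.36, SE 0.04, adjusted p = 0.00546). In each of these 4 genes both low ΔΨm libraries lay below both high ΔΨm libraries. Groups lay apart in 26 of the 29 members here, and the share over all genes was not determined. Ggps1, on the branch that leads to prenylation, went the other way without passing the test (1.13 and 1.15 against 1.3 and 1.43, adjusted p = 0.0852).

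In the sterol arm the deepest falls were in Nsdhl, a sterol dehydrogenase of the demethylation steps, in Dhcr7, the reductase of the final step, and in Msmo1, a methylsterol oxidase. Nsdhl was at 7.97 and 8.22 in high and 5.15 and 4.87 in low ΔΨm libraries (log2 fold change -0.68, SE 0.05, adjusted p = 0.00255). Dhcr7 was at 7.18 and 7.31 against 4.85 and 4.99 (log2 fold change -0.55, SE 0.04, adjusted p = 0.00277). Msmo1 was at 10.9 and 12 against 7.98 and 7.67 (log2 fold change -0.54, SE 0.06, adjusted p = 0.00618). Sqle, the squalene epoxidase gene and a rate-limiting step, fell less, from 25.9 and 27.1 to 22.2 and 22 (log2 fold change -0.26, adjusted p = 0.012). Fdft1, the squalene synthase gene, was the 1 enzyme gene that rose (14.6 and 14.7 against 17.6 and 16.9, log2 fold change 0.24), and Ctsb, which overlaps it on the other strand, was at 15.4 and 14.8 against 27.8 and 27.7. Ebp, a sterol isomerase gene, was at 6.7 and 6.52 against 6.91 and 6.45, and its groups overlapped.

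The sensing genes split. Srebf2 fell from 36.8 and 37.7 to 31.4 and 31.5 (log2 fold change -0.24, SE 0.03, adjusted p = 0.00996) and Insig1 from 51.5 and 53.3 to 41.7 and 42.1 (log2 fold change -0.32, SE 0.04, adjusted p = 0.00673). Srebf1 rose from 21.3 and 21.4 to 25.8 and 24.7 (log2 fold change 0.24, SE 0.04, adjusted p = 0.0123), as did Insig2, from 1.49 and 1.57 to 1.95 and 1.96 (log2 fold change 0.33, adjusted p = 0.0214). Each of these 2 pairs of related genes therefore held one member that fell and one that rose. Scap, the escort of the SREBPs, rose from 4.56 and 4.85 to 6.7 and 6.97 (log2 fold change 0.53, SE 0.05, adjusted p = 0.00488), beside 5830462I19Rik on the other strand at 1.07 and 1.14 against 1.62 and 1.72. Abca1 had the largest rise of the members, from 6.5 and 6.11 to 9.15 and 9.74 (log2 fold change 0.58, SE 0.05, adjusted p = 0.00488). Npc1 and Npc2 also rose (log2 fold changes 0.27 and 0.29), and Stard4 and Nr1h2 did not pass the test (0.02 and 0.03).

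The calls of Pmvk, Fdps, Msmo1, Nsdhl, Dhcr7, Scap and Abca1 also held on the deposited scale, which left 5 members lower and 2 higher. Scaling to the ERCC spike-in left 1 lower and 1 higher, the fits without low ΔΨm replicate 1 and without replicate 2 each left 2 lower and none higher, and those without high ΔΨm replicate 1 or 2 left 4 higher. The calls over all genes went down as well, from 4088 higher and 3584 lower to 2580 and 1086 with the spike-in, and to 810 and 488 or 629 and 313 without a low ΔΨm replicate. The median log2 fold change of the members was -0.26, then -0.16 with the spike-in, and -0.24 or -0.25 without a low ΔΨm replicate. The 10 naive ESC markers summed to 719 and 756 FPKM in high and 834 and 829 in low ΔΨm libraries (5 higher, 1 lower), and the fibroblast markers to 1.84 and 1.73 and then 1.57 and 1.63 (1 higher and 2 lower of 3 tested). Their part in the member values was not tested.

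**Figure D2:**
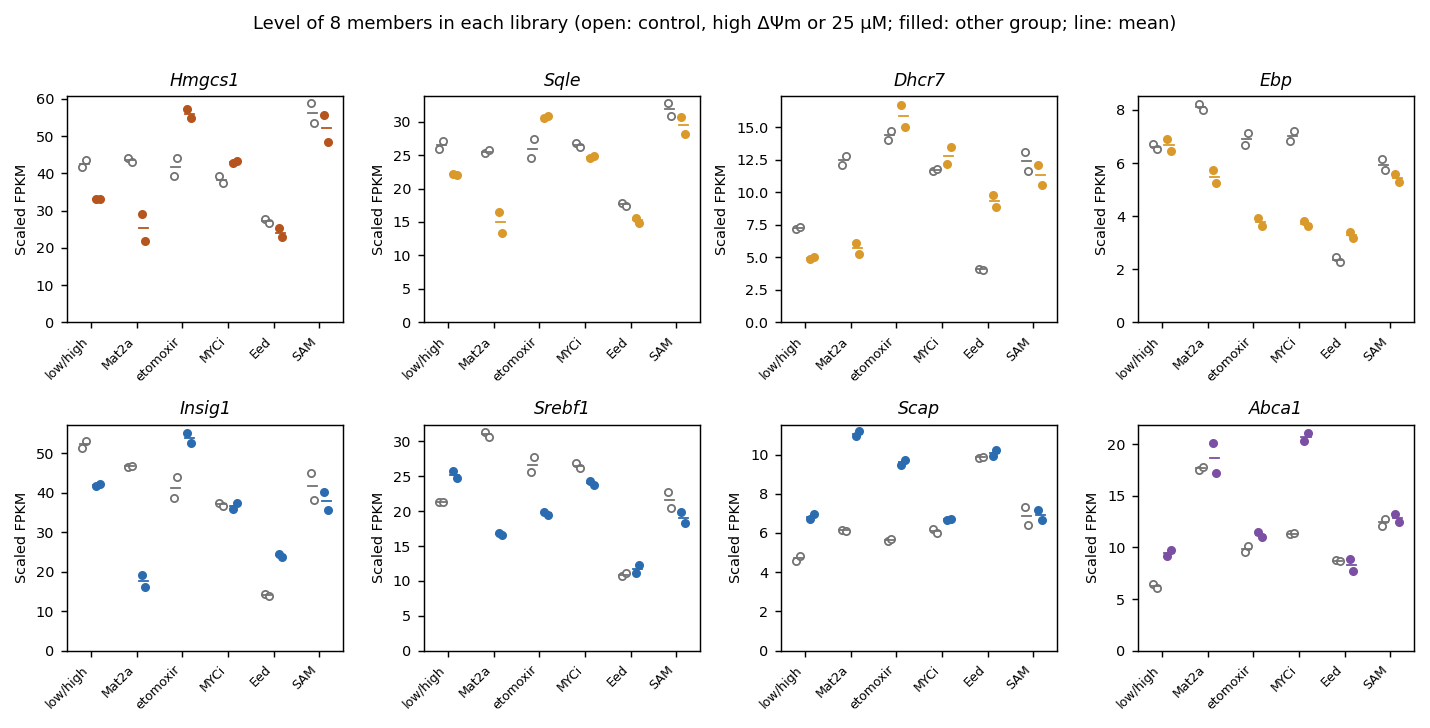
Scaled FPKM (y axis, from 0) of 8 members in each library, by comparison (x axis); open circles are the control, high ΔΨm, heterozygous or 25 µM SAM libraries, filled circles the other group, and lines the mean of 2 libraries. Insig1 is at 46.6 and 46.9 in siCtr and at 19.2 and 16.2 in siMat2a libraries, and Ebp is lower in both inhibitor groups than in its controls.

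Knockdown of Mat2a tested what lowering the SAM-making enzyme does, and nearly the whole pathway was lower. Relative to the median gene 24 of 29 members fell and 1 rose, where 19.8% of the 24938 genes tested fell and 23.0% rose. All 19 synthesis enzymes had a negative fold change (from -1.39 to -0.30, median -0.79, against 0.04 over all genes) and 18 passed the test, all but Pmvk (1.26 and 1.4 against 0.938 and 1.2, adjusted p = 0.221). Of the other 10 members 6 fell and 1 rose.

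Insig1, the SREBP target that restrains the pathway, fell most of all. It was at 46.6 and 46.9 FPKM in siCtr and 19.2 and 16.2 in siMat2a libraries (log2 fold change -1.40, SE 0.10, adjusted p = 0.00177). Srebf1 fell from 31.4 and 30.7 to 16.8 and 16.6 (log2 fold change -0.89, SE 0.07, adjusted p = 0.00205) and Srebf2 from 38.4 and 37.6 to 27.1 and 25.1 (log2 fold change -0.54, SE 0.08, adjusted p = 0.00749). Insig2 did not follow Insig1, at 2.27 and 2.08 against 2.44 and 2.29 (log2 fold change 0.12, adjusted p = 0.449). Scap was the only member that rose relative to the median gene, from 6.17 and 6.12 to 10.9 and 11.2 (log2 fold change 0.84, SE 0.07, adjusted p = 0.00257), but on the deposited scale its log2 fold change was 0.09 with an adjusted p of 0.853. Its antisense neighbour 5830462I19Rik was at 1.97 and 2.0 against 3.36 and 3.52.

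In the mevalonate arm Fdps, Mvd and Idi1 fell by more than 1 on the log2 scale. Fdps was at 4.61 and 4.47 against 1.89 and 1.67 (log2 fold change -1.30, SE 0.11, adjusted p = 0.00237), and its neighbour Gm43738 at 7.44 and 7.32 against 3.2 and 2.63. Mvd, the mevalonate diphosphate decarboxylase gene, was at 22.4 and 20.8 against 8.89 and 8.75 (log2 fold change -1.28, SE 0.08, adjusted p = 0.00142). Idi1 differed between the siMat2a libraries, at 11.5 and 7.35, against 18.6 and 19.8 in siCtr (log2 fold change -1.05, SE 0.22, adjusted p = 0.0178). Hmgcs1, at the head of the arm, went from 44 and 43.1 to 29 and 21.8 (log2 fold change -0.79, SE 0.15, adjusted p = 0.0143).

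In the sterol arm Nsdhl was at 13.7 and 15.4 against 6.13 and 4.89 (log2 fold change -1.39, SE 0.14, adjusted p = 0.0031). Tm7sf2, a sterol reductase gene, was at 2.59 and 2.23 against 0.998 and 0.981 (log2 fold change -1.20, SE 0.14, adjusted p = 0.00428), and its neighbour Vps51 at 4.35 and 4.02 against 3.48 and 3.75. Both of these genes act on the sterol ring after its closure. Dhcr7 was at 12.1 and 12.8 against 6.09 and 5.27 (log2 fold change -1.12, SE 0.10, adjusted p = 0.00265) and Cyp51, the lanosterol demethylase gene, at 23.5 and 23.5 against 13.1 and 10.3 (log2 fold change -1.01, SE 0.13, adjusted p = 0.0054). Sqle fell from 25.3 and 25.7 to 16.5 and 13.4 (log2 fold change -0.77, SE 0.12, adjusted p = 0.0084). In all 19 enzymes both knockdown libraries lay below both controls, and for all but Pmvk siMat2a replicate 2 was the lower one. Groups lay apart in 28 of all 29 members here. The share of all genes whose groups lay apart was not determined, so this is a description only. In transport, Npc1, Npc2 and Stard4 fell by 0.83, 0.64 and 0.67 on the log2 scale. Abca1 was at 17.5 and 17.8 against 20.1 and 17.2, with overlapping groups (log2 fold change 0.07, adjusted p = 0.589).

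The same 23 members were lower under the median, the deposited and the upper quartile scaling and with a filter at FPKM of 1, and that filter left 2 higher. The deposited scale moves folds down as a whole here, with 36.8% of all genes lower, so it adds little to a call of lower. Leaving out a siCtr replicate lowered the calls over all genes as well as those of the members. Without siCtr replicate 1 or 2 the number lower was 15 or 14, and without siMat2a replicate 2 it was 25, with 2 higher. The 10 naive ESC markers summed to 785 and 764 FPKM in siCtr and 636 and 570 in siMat2a libraries (5 lower, 2 higher), and the fibroblast markers to 0.915 and 0.993 and then 2.46 and 2.25 (4 higher and 1 lower of 5 tested). Their part in the result was not tested.

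Etomoxir was used to induce quiescence through a block of fatty acid oxidation. Here the members split in a way that depends on the scale. Relative to the median gene 13 members were higher and 8 lower, where 30.9% of the 25421 genes tested were higher and 31.2% lower. The count lower lies near its share of all genes. On the deposited scale no member was higher and 16 were lower, where 13.9% of all genes were higher and 51.3% lower. Of the synthesis genes 9 were higher and 4 lower relative to the median gene (median log2 fold change 0.14, against 0.05 over all genes), and on the deposited scale 10 were lower.

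Acat2, Tm7sf2, Ebp and Srebf1 were lower under the median, the deposited and the upper quartile scaling and with a filter at FPKM of 1. The deposited scale moves folds down as a whole here, so it adds little to a call of lower. Ebp fell most, from 6.7 and 7.12 in H2O to 3.93 and 3.65 in etomoxir libraries (log2 fold change -0.85, SE 0.07, adjusted p = 0.001). Tm7sf2 fell from 2.84 and 2.59 to 1.95 and 1.81 (log2 fold change -0.51, SE 0.09, adjusted p = 0.00941). Acat2, the cytosolic thiolase gene at the entry of the pathway, fell from 24.7 and 26.9 to 17.4 and 19.3 (log2 fold change -0.49, SE 0.08, adjusted p = 0.00591). Srebf1 fell from 25.6 and 27.8 to 19.9 and 19.5 (log2 fold change -0.43, SE 0.06, adjusted p = 0.00405), while Srebf2 was at 39.3 and 42.1 against 38.2 and 36 (log2 fold change -0.13, adjusted p = 0.138).

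Of the 13 members higher relative to the median gene 7 were of the sterol arm, and all 13 had a negative fold change on the deposited scale, where none of them passed the test. Hsd17b7, a sterol ketoreductase gene, was at 2.68 and 2.96 against 4.49 and 4.22 (log2 fold change 0.61, SE 0.08, adjusted p = 0.00374, deposited -0.16). Lss, the lanosterol synthase gene, was at 4.87 and 4.79 against 6.81 and 7.39 (log2 fold change 0.55, SE 0.06, adjusted p = 0.00256, deposited -0.24). Pmvk was at 2.44 and 2.06 against 3.25 and 3.01 (log2 fold change 0.46, SE 0.11, adjusted p = 0.0207, deposited -0.30). These 3 genes had fallen in low ΔΨm cells. Hmgcs1 was at 39.3 and 44.1 against 57.2 and 54.8 (log2 fold change 0.43, deposited -0.37) and Sqle at 24.5 and 27.4 against 30.5 and 30.9 (0.24, deposited -0.55).

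Among the sensing genes, Scap was at 5.61 and 5.71 against 9.48 and 9.73 (log2 fold change 0.75, SE 0.05, adjusted p = 0.000675, deposited -0.03), with 5830462I19Rik at 1.65 and 1.79 against 2.99 and 3.03. Insig1 was at 38.6 and 43.9 against 55.2 and 52.6 (log2 fold change 0.39, deposited -0.41) and Insig2 at 2.51 and 2.48 against 3.29 and 2.95 (0.31, deposited -0.46). Abca1 was at 9.55 and 10.2 against 11.5 and 11 (0.19, deposited -0.60). A ratio of 2 genes within a library is free of the scaling: Insig1 over Srebf2 was 0.984 and 1.04 in H2O and 1.44 and 1.46 in etomoxir libraries, with no overlap, so the 2 genes changed unequally on any scale. Npc1 and Npc2 were lower (-0.19 and -0.37).

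Without etomoxir replicate 1 the members higher and lower were 4 and 3, and without replicate 2 they were 3 and 2. Calls over all genes also went down without an etomoxir replicate. With no filter on low values 4 members were higher, where 7231 of 41957 genes were. Upper quartile scaling left 4 lower, where 6486 of 25421 genes were. A filter at FPKM of 1 left 4 lower, where 5416 of 15237 genes were. Without H2O replicate 2 the median log2 fold change of the members was 0.06, against -0.02 with all libraries. The naive ESC markers moved here too (9 of 10 lower and 1 higher, sums of 751 and 821 and then 455 and 433 FPKM), and their part in these values was not tested.

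MYCi induces quiescence by another route, through MYC. Relative to the median gene 9 members were lower and 5 higher, where 28.4% of 24335 genes tested were lower and 25.4% higher. The count lower lies near its share and the count higher below its share, so nothing is read from these counts. The deposited scale, on which 57.8% of all genes were lower and 7.89% higher, gave 28 lower and none higher. The synthesis genes had a median log2 fold change of -0.06 (0.03 over all genes), with 6 lower and 3 higher.

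Acat2, Mvk, Idi1, Fdps and Ebp, all of them synthesis enzymes, were lower under those same 4 settings. As under etomoxir, the deposited scale adds little to a call of lower. Ebp again fell most, from 6.84 and 7.22 in DMSO to 3.8 and 3.62 in MYCi libraries (log2 fold change -0.90, SE 0.06, adjusted p = 0.0012). Idi1 fell from 19.3 and 17.7 to 13 and 13.2 (log2 fold change -0.49, SE 0.06, adjusted p = 0.00314). Mvk, the mevalonate kinase gene, fell from 7.13 and 7.17 to 5.15 and 5.55 (log2 fold change -0.41, SE 0.06, adjusted p = 0.00511). Of the 5 genes named first, 4 belong to the mevalonate arm, which is a description with no test. Fdps fell from 4.98 and 4.92 to 3.88 and 3.59 and Acat2 from 25.1 and 25.3 to 18.9 and 19.7 (log2 fold changes -0.40 and -0.39). Nsdhl was at 15 and 16.8 against 12.4 and 12.9 (-0.33, adjusted p = 0.0152). Hmgcs1 was slightly higher relative to the median gene, at 39.2 and 37.4 against 42.7 and 43.3 (0.17), and lower on the deposited scale (-0.60). Sqle did not pass the test, at 26.8 and 26.2 against 24.5 and 24.9 (-0.10, adjusted p = 0.0805).

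Abca1 had the largest fold change upward. It was at 11.3 and 11.4 in DMSO and 20.3 and 21.1 in MYCi libraries (log2 fold change 0.87, SE 0.04, adjusted p = 0.00112), and on the deposited scale its fold change was 0.10 and did not pass. Relative to Hmgcs1 within each library, Abca1 was at 0.288 and 0.304 in DMSO and 0.476 and 0.488 in MYCi libraries. The 2 genes therefore changed unequally on any scale. Nr1h2, an LXR gene, was at 14.7 and 13.7 against 11.4 and 11.7 (-0.29, adjusted p = 0.0104). Srebf2 fell from 36.6 and 35.4 to 29.8 and 31.1 (-0.24, adjusted p = 0.012). Srebf1 was at 26.9 and 26.2 against 24.4 and 23.8 (-0.14), but its fold change was 0.01 with upper quartile scaling and 0.04 with a filter at FPKM of 1. Insig1 (37.4 and 36.8 against 36 and 37.4) and Insig2 (2.0 and 2.0 against 2.14 and 1.98) overlapped between groups.

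Upper quartile scaling turned the counts to 12 higher and 5 lower, where 8013 and 5163 of 24335 genes were. A filter at FPKM of 1 turned them to 14 and 5, where 4656 and 4708 of 14900 genes were. Leaving out 1 library lowered the calls over all genes too. Without DMSO replicate 1 or 2 the number higher was 1, and without MYCi replicate 1 or 2 it was 3 or 2. The naive ESC markers were lower in 8 of 10 (sums of 769 and 722 and then 552 and 559 FPKM), and their part was not tested.

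**Figure D3:**
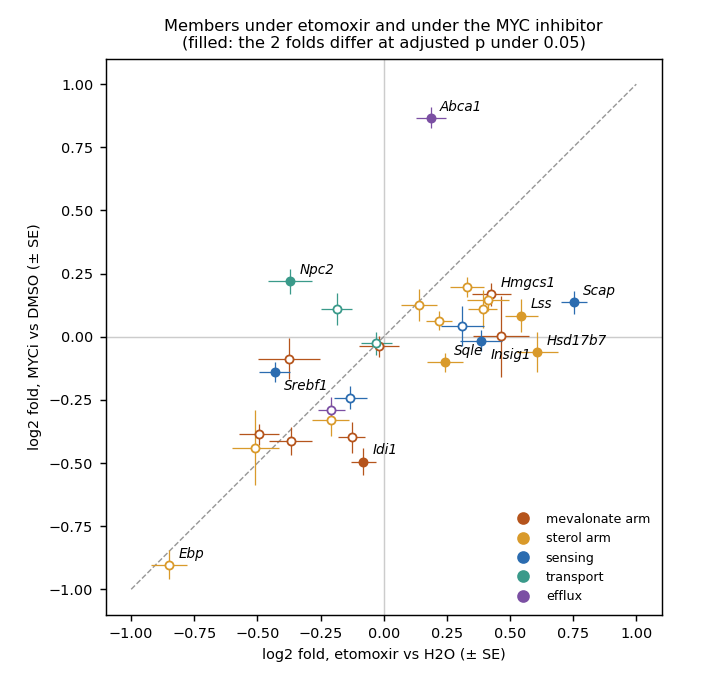
Log2 fold change of each member under etomoxir (x axis) and under MYCi (y axis), with standard errors, coloured by role. Filled points are the 9 members whose 2 folds differed at an adjusted p under 0.05, with libraries scaled to the median gene (none differed on the deposited scale), the dashed line marks equal folds, and Ebp lies near it at -0.85 and -0.90.

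The effects of etomoxir and MYCi were then set against each other, each measured within its own table. They differed in 9 members (6 with a higher and 3 with a lower fold under etomoxir), where 8.46% and 10.3% of 23717 genes did so, and 20 members did not differ beyond the threshold. Scap, Hsd17b7, Lss, Idi1, Insig1 and Sqle had the higher fold under etomoxir, by 0.62, 0.67, 0.46, 0.41, 0.40 and 0.34 on the log2 scale. Abca1, Npc2 and Srebf1 had the lower one, by -0.68, -0.59 and -0.29. The fall of Ebp did not differ between the inhibitors beyond its error (difference 0.05, SE 0.09). On the deposited scale no member passed this test, where the differences were of like size and their errors larger: 0.59 (SE 0.26) for Scap, 0.64 (SE 0.29) for Hsd17b7 and -0.70 (SE 0.28) for Abca1. Leaving out etomoxir replicate 2, DMSO replicate 1 or 2 or MYCi replicate 2 left 3 members with the higher fold, leaving out DMSO replicate 2 or MYCi replicate 2 left 1 with the lower one, and a filter at FPKM of 1 gave 11 and 4.

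The effect of low ΔΨm was next set against the mean effect of both inhibitors, as spontaneous against induced quiescence. With each table scaled to its own median gene, 13 members had a lower and 7 a higher fold in the sorted cells. Of 20136 genes 19.6% were lower and 36.5% higher, so the count higher lies below its share. The median difference was 0.12 over all genes and -0.05 over the members, so a difference of 0 is not that of the median gene here. Of the 13, Insig1 (-0.50) is a sensing gene and the other 12 are synthesis enzymes, among them Pmvk (-0.99), Msmo1 (-0.82), Lss (-0.77) and Hmgcs1 (-0.66). Ebp (0.89), which fell under both inhibitors, had a higher fold in sorted cells, as did Srebf1 (0.53). Srebf1 fell under etomoxir, but its direction under MYCi depended on the scaling and the filter. On the deposited scale, which carries the general shift of the inhibitor tables, 17 members had a higher fold and none a lower one, so the direction of this contrast rests on the scaling.

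Loss of Eed asked what PRC2 does in these cells, and several members were higher in null cells. Relative to the median gene 11 members rose and 3 fell, where 25.3% of 27015 genes tested rose and 22.5% fell. The synthesis enzymes had a median log2 fold change of 0.20 (0.01 over all genes), with 7 higher and 3 lower. All 3 transport genes rose, as did Insig1, while the other 4 sensing genes and both efflux genes did not pass the test.

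Dhcr7, the gene of the final reductase, rose most. It was at 4.13 and 3.99 FPKM in heterozygous and 9.78 and 8.88 in null libraries (log2 fold change 1.18, SE 0.08, adjusted p = 0.00103). Hsd17b7 rose from 3.2 and 3.27 to 5.87 and 5.24 (log2 fold change 0.76, SE 0.09, adjusted p = 0.00348), and Fdps from 2.27 and 2.19 to 3.27 and 3.61 (log2 fold change 0.60, SE 0.09, adjusted p = 0.00741), beside Gm43738 at 3.8 and 3.65 against 5.76 and 6.42. Ebp, which fell under both inhibitors, rose here from 2.45 and 2.27 to 3.41 and 3.16 (log2 fold change 0.46, SE 0.09, adjusted p = 0.0163). Idi1 fell from 14 and 13.2 to 10.7 and 9.14 (log2 fold change -0.45, adjusted p = 0.0184) and Sqle from 17.9 and 17.5 to 15.6 and 14.9 (-0.21, adjusted p = 0.0418). Hmgcs1 did not pass the test (27.9 and 26.5 against 25.4 and 22.8, -0.18, adjusted p = 0.126).

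In transport, Stard4 rose from 2.28 and 2.07 to 4.58 and 3.84 (log2 fold change 0.92, SE 0.12, adjusted p = 0.00483). Npc1 rose from 5.15 and 5.04 to 7.96 and 7.43 (log2 fold change 0.58, SE 0.07, adjusted p = 0.00401) and Npc2 from 8.9 and 8.71 to 13.6 and 13.5 (log2 fold change 0.62, SE 0.06, adjusted p = 0.00207). In all 3 genes both null libraries lay above both heterozygous ones. Groups lay apart in 26 of the 29 members here, and the share over all genes was not determined. Insig1 rose from 14.5 and 13.9 to 24.6 and 23.7 (log2 fold change 0.77, SE 0.06, adjusted p = 0.00141). Insig2 (2.97 and 2.84 against 2.68 and 3.14) and Abca1 (8.74 and 8.71 against 8.92 and 7.69) overlapped between the groups. Srebf1 was at 10.7 and 11.1 against 11.1 and 12.4 and Srebf2 at 22.6 and 22.6 against 24.7 and 25.2 (adjusted p = 0.306 and 0.0948).

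Of the 14 calls 11 also passed on the deposited scale, where Sqle, Sc5d and Tm7sf2 did not. Leaving out a heterozygous replicate lowered the calls over all genes as well as those of the members. Without Eed heterozygous replicate 1 or 2, 6 members were higher and none lower. The fibroblast markers summed to 8.55 and 9.32 FPKM in heterozygous and 8.15 and 8.01 in null libraries, with 4 higher and 2 lower: Col1a1 went from 6.06 and 6.81 to 0.674 and 0.597 and Pdgfrb from 0.725 and 0.595 to 4.03 and 3.82, while Dcn and Lum were at or near 0 in all 4 libraries. The naive ESC markers summed to 482 and 486 and then 490 and 486 FPKM (5 higher, 4 lower). Their part in the member values was not tested.

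Between the SAM doses no member passed the test, nor did any of the 23911 genes (0.00% higher and 0.00% lower with limma). At an unadjusted p under 0.05, 960 genes were higher and 489 lower, and limma on the deposited scale called 93 and 118 genes (0.389% and 0.493%), none of them a member. Member fold changes ran from -0.34 to 0.15. Hmgcs1 was at 58.8 and 53.4 with 25 µM and 55.7 and 48.5 with 50 µM SAM (log2 fold change -0.11, SE 0.11, adjusted p = 0.779), and Insig1 at 45 and 38.2 against 40.3 and 35.8, both with overlapping groups. Insig2 (2.38 and 2.12 against 2.27 and 2.24) and Abca1 (12.1 and 12.8 against 13.2 and 12.5) overlapped too. Sqle was at 32.8 and 30.9 against 30.7 and 28.2, Srebf1 at 22.8 and 20.5 against 19.9 and 18.3 and Srebf2 at 38.3 and 36.8 against 35.8 and 32.9, lower at 50 µM in both libraries. Their adjusted p-values were 0.745, 0.742 and 0.742. This does not show that the doses act alike.

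**Figure D4:**
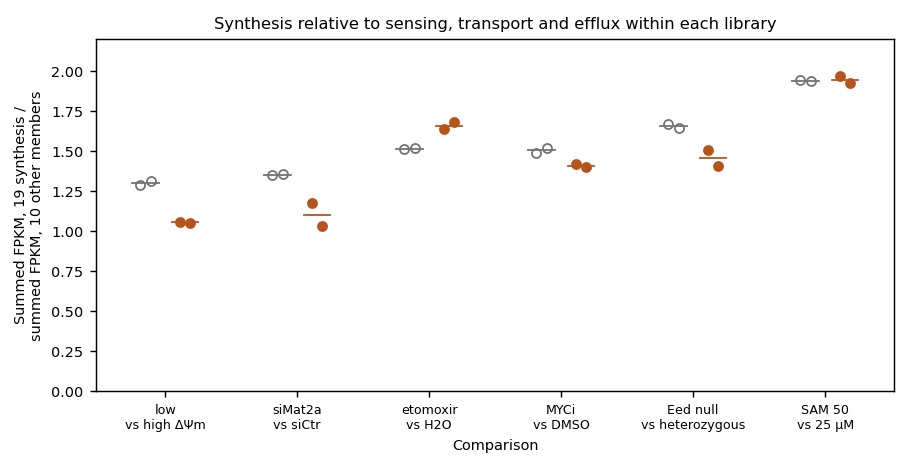
Summed FPKM of the 19 synthesis genes divided by that of the other 10 members in each library (y axis, from 0), by comparison (x axis). Open circles are the control, high ΔΨm, heterozygous or 25 µM SAM libraries, filled circles the other group, lines their mean. The ratio is 1.29 and 1.32 in high and 1.06 and 1.05 in low ΔΨm libraries, and among the 5 comparisons whose groups do not overlap it is higher than in the controls under etomoxir alone, where the ratio weighs abundant genes most.

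To compare synthesis with sensing, transport and efflux free of any scaling, the summed FPKM of the 19 synthesis genes was divided by that of the other 10 members within each library. These 10 hold no lipoprotein receptor gene, and they include Insig1, itself an SREBP target. This ratio is a description over genes of unequal level, with no test. It was 1.29 and 1.32 in high and 1.06 and 1.05 in low ΔΨm libraries. After Mat2a knockdown it was 1.17 and 1.03, against 1.35 and 1.36 in siCtr. In both of these the groups lay apart, with synthesis the lower side. Under etomoxir it was 1.64 and 1.68 against 1.51 and 1.52 in H2O, and under MYCi 1.42 and 1.4 against 1.49 and 1.52 in DMSO. The sums weigh abundant genes most. With every gene given the same weight, the mean log2 level of the synthesis genes minus that of the others was -0.273 and -0.269 in H2O and -0.267 and -0.256 in etomoxir libraries, close together, and -0.339 and -0.295 in DMSO and -0.51 and -0.554 in MYCi libraries. This measure was lower in low ΔΨm than in high ΔΨm libraries too (-0.85 and -0.86 against -0.344 and -0.325), and after Mat2a knockdown (-0.926 and -1.04 against -0.532 and -0.513). The ratio of sums was 1.51 and 1.41 in Eed null libraries against 1.67 and 1.65 in heterozygous ones, and the SAM doses overlapped in it (1.94 and 1.94 against 1.97 and 1.92). With equal weights the Eed null libraries were at -0.513 and -0.561, against -0.465 and -0.465 in heterozygous ones. Within sensing, the ratio of Insig1 to Srebf2 was 1.21 and 1.25 in siCtr and 0.707 and 0.648 in siMat2a libraries. In Eed heterozygous libraries it was 0.638 and 0.613, and in null ones 0.997 and 0.94. So Insig1 lost ground to Srebf2 in the first comparison and gained on it in the second, on any scale.

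Calls were also read by gene over the 5 comparisons that had any, which share no libraries. Acat2, Mvk and Idi1 were lower in 4 and higher in none, and Srebf2 and Nsdhl lower in 3 and higher in none. The share of all genes with such counts over the comparisons was not determined. The genes named here were picked after their calls were seen, so these counts are a description only. Acat2 and Mvk were lower in all but the Eed comparison (log2 fold changes 0.12 and 0.40 there, not called), and Idi1 in all but etomoxir (-0.08, not called). On the deposited scale the low ΔΨm calls of Acat2, Mvk, Idi1 and Srebf2 did not pass, while the calls of these 5 genes in the other comparisons did. That scale moves folds down as a whole after Mat2a knockdown, under etomoxir and under MYCi, so passing as lower there adds little. Scap and Abca1 were higher in 3 and lower in none, but on the deposited scale each passed in low ΔΨm cells alone, with fold changes there of -0.03 and -0.60 under etomoxir, 0.09 for Scap after Mat2a knockdown and 0.10 for Abca1 under MYCi. Ebp was lower in 3 and higher in 1. Insig2 was higher in 2 and lower in none, and neither call passed on the deposited scale (0.37 in low ΔΨm cells and -0.46 under etomoxir).

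Genes of neighbouring pathways were counted from lists chosen by name. Of 12 fatty acid synthesis genes, which SREBP-1 is known to switch on, 10 fell and none rose after Mat2a knockdown (median log2 fold change -0.66). There Scd1, a stearoyl-CoA desaturase gene, went from 89.4 and 93.9 to 46.4 and 35.6 (log2 fold change -1.17, SE 0.14, adjusted p = 0.0051) and Scd2 from 273 and 268 to 135 and 111 (log2 fold change -1.14, SE 0.13, adjusted p = 0.00434). In Eed null cells 6 rose and 2 fell, with Scd1 at 10.2 and 9.55 against 35.2 and 29.2 (log2 fold change 1.69, SE 0.11, adjusted p = 0.000951). The list had 2 higher and 6 lower in low ΔΨm cells (0 and 0 on the deposited scale), 1 and 5 under etomoxir (0 and 9), and 1 and 4 under MYCi (0 and 12). These counts are read against the shares of all genes called higher and lower, given above relative to the median gene. On the deposited scale those shares were 14.0% and 6.45% in low ΔΨm cells, 13.1% and 36.8% after Mat2a knockdown, and 24.2% and 12.1% in Eed null cells. The 4 of 12 genes lower under MYCi lie near its share of all genes.

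Of the 9 oxysterol and LXR target genes, 6 of the 8 tested rose in Eed null cells and none fell, where 25.3% and 22.5% of all genes did. Abcg1, an LXR target and sterol pump gene, was at 0.704 and 0.573 against 2.86 and 2.79 there (log2 fold change 1.99, SE 0.13, adjusted p = 0.00102) and Smpdl3a at 0.217 and 0.126 against 2.49 and 2.27 (3.21). In low ΔΨm cells 2 of the 6 tested rose and 4 were not called, where 19.4% of all genes rose. Abcg1 rose there beside Abca1, from 1.31 and 1.26 to 2.94 and 3.24 (log2 fold change 1.20, SE 0.07, adjusted p = 0.00203). Under etomoxir it fell from 4.19 and 4.34 to 2.0 and 1.89 (log2 fold change -1.09, SE 0.07, adjusted p = 0.000691), while Cyp27a1, which makes an oxysterol, went from 0.302 and 0.235 to 2.91 and 2.85 (log2 fold change 3.02, SE 0.15, adjusted p = 0.00041), and both held their direction on the deposited scale (-1.86 and 2.35). Over the list 5 of 7 tested were higher and 1 lower under etomoxir, where 30.9% and 31.2% of all genes were. On the deposited scale 3 were higher and 2 lower, where 13.9% and 51.3% of all genes were. Under MYCi 4 of 6 were higher and none lower, where 25.4% and 28.4% of all genes were. On the deposited scale, though, 1 was higher and 2 lower there, where 7.89% and 57.8% of all genes were. After Mat2a knockdown 2 of 7 tested were higher and 1 lower, where 23.0% and 19.8% of all genes were.

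Of 20 genes of sterol uptake, esterification and trafficking, Lrp1, a lipoprotein receptor gene, rose in low ΔΨm cells from 2.71 and 2.51 to 5.34 and 5.85 (log2 fold change 1.07, SE 0.07, adjusted p = 0.0024). In those cells Lipa and Soat1, of lysosomal release and of esterification, also rose from low levels (0.173 and 0.15 against 0.552 and 0.528, and 0.326 and 0.247 against 0.855 and 0.801). Tmem97 fell under etomoxir (39.7 and 43.6 against 23.8 and 21.9, -0.86) and under MYCi (40.3 and 40.4 against 25.2 and 28.2, -0.60), as Ebp did. Scarb1, the receptor gene for high-density lipoprotein, rose in Eed null cells from 3.69 and 3.43 to 11.1 and 10.4 (log2 fold change 1.57, SE 0.08, adjusted p = 0.000688). Over the list 6 were higher and 4 lower in low ΔΨm cells (4 and 1 on the deposited scale), 2 and 6 after Mat2a knockdown (0 and 9), 10 and 4 under etomoxir (1 and 9), 7 and 7 under MYCi (0 and 14), and 7 and 2 in Eed null cells (8 and 0). These counts lie within a few genes of what the shares of all genes in the same comparison and direction would give, and nothing is read from them about the list.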

How the data were processed

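RNA-seq libraries were made from about 400 ng of rRNA-depleted RNA with ERCC spike-in. The authors trimmed reads (Trim Galore, cutadapt), aligned them to mm10 with TopHat2 2.1.1, removed duplicates with SAMtools 1.9, counted fragments without strand and with shared fractions (featureCounts, on Ensembl, NONCODE and HOMER 4.10 repeats) and deposited 6 tables of FPKM (edgeR). No counts were used, so depth was estimated from the step of low FPKM values. Ensembl genes were matched to symbols by GENCODE M21 (55144 of 55385). Here, each table was filtered (FPKM of at least 0.1 in 2 or more of 4 libraries), each library scaled by its median ratio (factors of 0.643 to 1.50), and log2(FPKM + 0.1) tested with limma 3.58.1 with an intensity trend (R 4.3.3), Benjamini-Hochberg adjusted over all genes, at 0.05. Fold changes are on this log2 scale, which understates low genes. Differences between comparisons were contrasts in 1 limma fit of tables scaled each on its own. The fit was tested on simulated data. In each comparison, up to 8 changed members with the largest fold and Srebf1, Srebf2, Insig1, Insig2, Hmgcs1, Sqle and Abca1 were given in full. Of other lists up to 3 genes were, and other genes named were chosen after their values were seen. Members and lists were chosen with earlier results of these data known. Figures were drawn with matplotlib 3.10.9.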

Additional observations from a re-analysis of the deposited data

Results flagged for a closer look

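The log2 fold changes of 2 treatments, each within its own table, were compared in 1 limma fit, and a member is given here where that test of the difference passed. Etomoxir gave the higher fold than MYCi in Scap (difference 0.62), Hsd17b7 (0.67), Lss (0.46), Idi1 (0.41), Insig1 (0.40) and Sqle (0.34), and the lower one in Abca1 (-0.68), Npc2 (-0.59) and Srebf1 (-0.29). Of all genes 8.46% had the higher and 10.3% the lower fold, and on the deposited scale no member passed.

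Against the mean of both inhibitor effects, low ΔΨm gave the lower fold in Pmvk (-0.99), Msmo1 (-0.82), Lss (-0.77), Hsd17b7 (-0.72), Dhcr7 (-0.68), Hmgcs1 (-0.66), Cyp51 (-0.60), Insig1 (-0.50), Fdps (-0.43), Nsdhl (-0.41), Sc5d (-0.39), Sqle (-0.33) and Idi1 (-0.20). It gave the higher fold in Ebp (0.89), Srebf1 (0.53), Ggps1 (0.47), Npc2 (0.36), Npc1 (0.31), Nr1h2 (0.28) and Acat2 (0.25). Of all genes 19.6% had the lower and 36.5% the higher fold, with a median difference of 0.12. On the deposited scale 17 members had a higher fold and none a lower one, so the direction of this contrast rests on the scaling. Tables were normalized separately, so treatment and table cannot be told apart beyond the controls each table holds.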

How the results depend on the processing

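Counts are of members higher and lower. Calls over all genes moved with several of these settings too, so a changed count is not a result about the members alone. The deposited scale gave 2 and 5 in low ΔΨm cells, 0 higher after Mat2a knockdown, 0 and 16 under etomoxir, 0 and 28 under MYCi, 1 lower in Eed null cells, 0 and 0 for etomoxir minus MYCi, and 17 and 0 for low ΔΨm minus the inhibitors. Of the genes given in full, the fold change on it under etomoxir turned negative for Scap (-0.03), Hsd17b7 (-0.16), Lss (-0.24), Pmvk (-0.30), Insig1 (-0.41), Insig2 (-0.46), Hmgcs1 (-0.37), Sqle (-0.55) and Abca1 (-0.60), and under MYCi for Insig2 (-0.69) and Hmgcs1 (-0.60). Of the others it turned under etomoxir for Fdft1 (-0.57), Cyp51 (-0.46), Msmo1 (-0.38) and Sc5d (-0.40), among more, and under MYCi Cyp51 (-0.57), Msmo1 (-0.62) and Npc2 (-0.55) went, as Hmgcs1 did, from called higher to called lower. Upper quartile scaling gave 4 lower under etomoxir, 12 and 5 under MYCi and 1 lower in Eed null cells, with MYCi fold changes of 0.01 for Srebf1 and 0.13 for Insig1. A filter at FPKM of 1 gave 2 higher after Mat2a knockdown, 4 lower under etomoxir, 14 and 5 under MYCi (Srebf1 0.04, Insig1 0.16), 1 lower in Eed null cells, 11 higher for etomoxir minus MYCi and 4 higher for low ΔΨm minus the inhibitors. With no filter 4 were higher under etomoxir and 1 under MYCi. Without the intensity trend 5 were lower under etomoxir, 1 higher under MYCi and 1 lower in Eed null cells. ERCC scaling, possible in the sorted cells' table and not run in the other 5, gave 1 and 1. The cause of each change was not tested, beyond the general shift that the scaling itself makes.

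Replicates shared only a number (correlations of same-numbered deviations between -0.09 and 0.24, 2 pairs each). The replicate block gave 3 higher under MYCi and left the other counts within 1.5 times. Both pseudocounts did so too. Leaving out 1 library changed the calls over all genes as well, so the counts that follow are not about the members alone. Leaving out 1 library at a time, which assumes that the lone library varies like the other groups, gave 0 to 4 higher and 2 to 15 lower in low ΔΨm cells, 1 to 2 and 14 to 25 after Mat2a knockdown, 3 to 10 and 2 to 9 under etomoxir, 1 to 3 and 6 to 7 under MYCi, 6 to 11 and 0 to 4 in Eed null cells, and 0 and 0 between SAM doses. Added after the data were seen, the same gave 3 to 7 and 1 to 4 for etomoxir minus MYCi, and 5 to 8 and 12 to 14 for low ΔΨm minus the inhibitors. Pmvk, Fdps and Tm7sf2 had the fewest estimated fragments of the members, 95.3, 170 and 206 in their lowest library.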
